A study of Homo sapiens with 8 samples.

Results

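A set of 10 genes of the ATF4 and CHOP axis of the integrated stress response, chosen by name, was followed through A375 cells that carried plasmids for the long noncoding RNA SLNCR1. They were ATF4, ATF3, DDIT3, TRIB3, CHAC1, ASNS, its pseudogene ASNSP1, INHBE, SESN2 and PSAT1, 10 of the 56638 entries in each deposited table, and all 10 were found. The genes were picked with their changes against vector already known, so those changes are given as a description. A375 is an established human malignant melanoma line. Its cells, grown with 10% serum, received 1 of 4 plasmids 24 h after seeding and were collected 48 h after transfection. The plasmids were pcDNA3.1(-) with full-length SLNCR1 (called SLNCR1), with its conserved region alone (SLNCR1 cons), with SLNCR1 lacking that region (SLNCR1 delta cons), and with no insert (vector), with 2 libraries each. All 4 groups therefore went through lipid transfection with plasmid DNA, vector cells included. A single line was used, expression was transient, and whether paired libraries were grown as separate cultures is not in the labels, so p-values may measure technical spread only.

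The integrated stress response joins several kinases, each set off by a different stress, to phosphorylation of the translation factor eIF2. General protein synthesis then slows while the transcription factor ATF4 is translated more, so much of its control lies beyond the amount of its mRNA. ATF4, with partners such as DDIT3 (the protein CHOP) and ATF3, turns on genes for amino acid synthesis and uptake, tRNA charging, glutathione breakdown and, when stress lasts, cell death. Melanoma cells are known to use the pathway when nutrients run short and in the endoplasmic reticulum stress response.

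The libraries held 8222868 to 12015394 reads in genes, solved from the deposited group means. Which solved library is which numbered replicate is not shown by the values, so the deeper of each pair is called a. The first principal component, 41.2% of the variance, placed the 4 libraries of SLNCR1 and SLNCR1 delta cons at 14.3 to 27.0 and the others at -20.3 to -14.1, and on the second SLNCR1 library b lay at 24.0, away from the rest at -18.3 to 4.96. In GENCODE 29 all 5 RefSeq transcripts of the SLNCR1 entry lie in LINC00511, whose entry may count transfected RNA together with the cell's own transcript. The annotation behind the deposited entry is not stated, so its values do not give the dose of each construct. LINC00511 had 865 and 886 normalized counts with SLNCR1, 1052 and 1141 with SLNCR1 cons, and 1155 and 870.1 with SLNCR1 delta cons, against 628 and 621 with vector. Of melanocytic markers, SOX10 lay at 2939.5 to 3704 and MITF at 539.7 to 791 normalized counts over all libraries, while TYR and DCT were near 0. S100B lay at 107 to 155, PMEL at 19.0 to 42.8 and MLANA at 9.93 to 17.7. Of keratinocyte markers DSG3 had no reads in any library, and KRT1 had none outside SLNCR1 delta cons library a. The others, KRT5, KRT14 and KRT10, had reads in every library. Summed markers of leukocytes were at 19 to 29, of endothelium at 22 to 37, of fibroblasts at 214 to 394 and of keratinocytes at 649 to 779 normalized counts. Their part in the results was not tested.

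Among the 10 genes, the same 3 fell with SLNCR1 and with SLNCR1 delta cons in the authors' deposited tables (adjusted p under 0.05): CHAC1, ASNSP1 and INHBE. With SLNCR1 delta cons ATF3, DDIT3 and ASNS fell as well, which made 3 of 10 genes with SLNCR1 and 6 of 10 with SLNCR1 delta cons in the authors' deposited tables. None rose. Over all tested genes the share called lower in the authors' deposited tables was 0.844% for SLNCR1 and 1.14% for SLNCR1 delta cons. These shares cover 33548 and 34744 genes, of which 16223 and 16110 averaged 10 or more and had a log2 fold change. No share was taken over genes matched to the 10 in level, so the shares are not a like comparison. With SLNCR1 cons no gene of the 10 was called by the authors' deposited table or by limma. Of the 10, 2 had an unadjusted p under 0.05 by each, namely ATF3 and ASNS. Over all genes so did 460 of 34347 tested in the authors' deposited table, low genes included. By limma it was 5.44% of genes averaging 10 or more. At the adjusted threshold 0.0175% of all genes were called there in the authors' deposited table and 0.00622% by limma. All 3 comparisons share the same 2 vector libraries. In these bulk samples fewer cells of a type and less RNA per cell cannot be told apart.

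**Figure D1:**
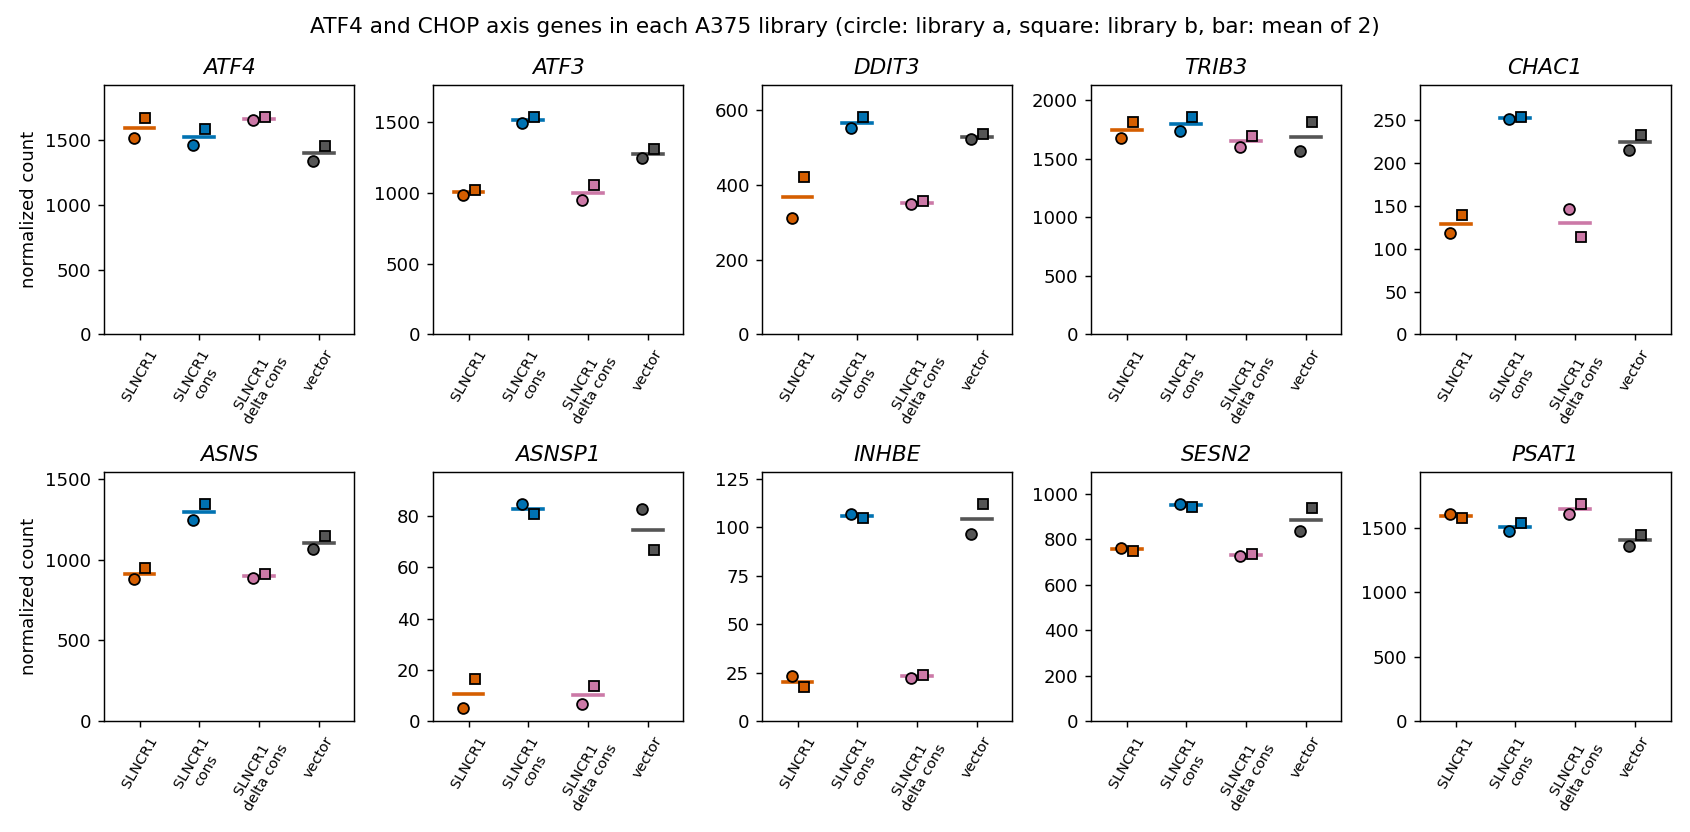
Normalized counts (vertical axes, from 0) of the 10 genes in each library of SLNCR1, SLNCR1 cons, SLNCR1 delta cons and vector cells; circles are library a, squares library b, and bars the mean of 2. INHBE and ASNSP1 sit at 5.03 to 24.0 in every SLNCR1 and SLNCR1 delta cons library and at 66.6 to 112 in every SLNCR1 cons and vector library, while ATF4 and TRIB3 overlap.

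The ATF4 mRNA, which encodes the master factor of the response, had 1518 and 1677 normalized counts with SLNCR1, 1466 and 1588 with SLNCR1 cons, and 1657 and 1677 with SLNCR1 delta cons, against 1340.2 and 1460.5 with vector. Every SLNCR1, SLNCR1 cons and SLNCR1 delta cons library lay above both vector libraries, the lower SLNCR1 cons one only just, at 1466 against 1460.5. The SLNCR1 cons libraries overlapped with the SLNCR1 ones. On the log2 scale the differences from vector in the authors' deposited tables were 0.19 with SLNCR1 (adjusted p = 0.877), 0.11 with SLNCR1 cons (adjusted p = 1) and 0.25 with SLNCR1 delta cons (adjusted p = 0.0742). None passed the threshold.

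DDIT3, the stress-induced factor CHOP that pairs with other leucine zipper proteins, had 312 and 422 normalized counts with SLNCR1, 554 and 581 with SLNCR1 cons, and 350.5 and 356 with SLNCR1 delta cons, against 522 and 536 with vector. Every SLNCR1 and SLNCR1 delta cons library was below every other library. The log2 fold changes for DDIT3 were -0.52 with SLNCR1 (adjusted p = 0.234), 0.09 with SLNCR1 cons (adjusted p = 1) and -0.59 with SLNCR1 delta cons (adjusted p = 0.000185) in the authors' deposited tables. DDIT3 overlaps MARS and MBD6 on the opposite strand, and the library kit keeps no strand, so their reads cannot be told apart where they overlap. MARS, the methionyl-tRNA synthetase gene, had log2 fold changes of 0.11, 0.07 and 0.10 in the same order in the authors' deposited tables, each with an adjusted p of 1.

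ATF3, an early stress factor of the same leucine zipper family, had 980.2 and 1021 normalized counts with SLNCR1, 1488 and 1529 with SLNCR1 cons, and 948 and 1051 with SLNCR1 delta cons, against 1241 and 1307 with vector. The groups fell into 3 levels with no overlap, SLNCR1 cons highest and vector between it and the other two. Log2 fold changes of ATF3 in the authors' deposited tables were -0.35 with SLNCR1 (adjusted p = 0.125), 0.23 with SLNCR1 cons (adjusted p = 1) and -0.35 with SLNCR1 delta cons (adjusted p = 0.00495).

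TRIB3, a pseudokinase that binds ATF4 and is itself an ATF4 and CHOP target, had 1679 and 1816 normalized counts with SLNCR1, 1733 and 1849.8 with SLNCR1 cons, and 1600.0 and 1696 with SLNCR1 delta cons, against 1563 and 1812 with vector. All groups overlapped with vector, whose 2 libraries marked nearly the whole range. In the authors' deposited tables its log2 fold changes were 0.05, 0.07 and -0.04 for SLNCR1, SLNCR1 cons and SLNCR1 delta cons, each with an adjusted p of 1.

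CHAC1, an enzyme that breaks down glutathione, had 119 and 139 normalized counts with SLNCR1, 251 and 253 with SLNCR1 cons, and 146 and 114 with SLNCR1 delta cons, against 215 and 233 with vector. Every SLNCR1 and SLNCR1 delta cons library lay below every vector library, and both SLNCR1 cons libraries lay above both vector libraries. The log2 fold change of CHAC1 was -0.79 with SLNCR1 (adjusted p = 0.00271), 0.15 with SLNCR1 cons (adjusted p = 1) and -0.79 with SLNCR1 delta cons (adjusted p = 0.00125) in the authors' deposited tables.

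INHBE, which encodes the beta subunit of the secreted factor activin E, had 23.1 and 17.7 normalized counts with SLNCR1, 107 and 105 with SLNCR1 cons, and 22.3 and 24.0 with SLNCR1 delta cons, against 96.4 and 112 with vector. The 4 low libraries were those of SLNCR1 and SLNCR1 delta cons, and SLNCR1 cons fell within the vector range. In the authors' deposited tables the log2 fold change of INHBE was -2.35 with SLNCR1 (adjusted p = 8.06e-11), 0.01 with SLNCR1 cons (adjusted p = 1) and -2.17 with SLNCR1 delta cons (adjusted p = 9.82e-10).

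ASNS, which makes asparagine from aspartate, had 879.6 and 947 normalized counts with SLNCR1, 1246 and 1342 with SLNCR1 cons, and 885 and 910.5 with SLNCR1 delta cons, against 1064 and 1145 with vector. As for ATF3, vector lay between SLNCR1 cons above and the other two groups below, with no overlap. Its log2 fold changes were -0.27 with SLNCR1 (adjusted p = 0.467), 0.21 with SLNCR1 cons (adjusted p = 1) and -0.30 with SLNCR1 delta cons (adjusted p = 0.0389) in the authors' deposited tables.

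SESN2, a leucine sensor that restrains the growth kinase complex mTORC1, had 762 and 747 normalized counts with SLNCR1, 953 and 943 with SLNCR1 cons, and 728 and 735 with SLNCR1 delta cons, against 837 and 935 with vector. The SLNCR1 and SLNCR1 delta cons libraries were again the 4 lowest, and the SLNCR1 cons libraries lay just above the higher vector one. Log2 fold changes for SESN2 in the authors' deposited tables were -0.23 with SLNCR1 (adjusted p = 0.807), 0.08 with SLNCR1 cons (adjusted p = 1) and -0.28 with SLNCR1 delta cons (adjusted p = 0.116).

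PSAT1, a serine synthesis enzyme, went the other way, with 1611 and 1575 normalized counts with SLNCR1, 1478 and 1535 with SLNCR1 cons, and 1610.0 and 1683 with SLNCR1 delta cons, against 1360.5 and 1444 with vector. Vector was lowest, SLNCR1 cons next, and the other two highest and overlapping. In the authors' deposited tables PSAT1 had log2 fold changes of 0.19 (adjusted p = 0.891), 0.09 (adjusted p = 1) and 0.23 (adjusted p = 0.136) for SLNCR1, SLNCR1 cons and SLNCR1 delta cons, none past the threshold.

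ASNSP1, a transcribed pseudogene of ASNS on chromosome 8, is close enough in sequence to its parent that reads may be shared. Its 4 GENCODE 29 transcripts aligned to ASNS over 66.9% to 99.1% of their length, at 87.7% to 91.7% identity. ASNSP1 had 5.03 and 16.6 normalized counts with SLNCR1, 84.6 and 81.0 with SLNCR1 cons, and 6.68 and 13.9 with SLNCR1 delta cons, against 82.6 and 66.6 with vector. The log2 fold changes of ASNSP1 were -2.78 with SLNCR1 (adjusted p = 1.75e-09), 0.13 with SLNCR1 cons (adjusted p = 1) and -2.86 with SLNCR1 delta cons (adjusted p = 3.81e-10) in the authors' deposited tables. In reads as counted, ASNSP1 had 5 and 15 with SLNCR1, 95 and 81 with SLNCR1 cons, and 6 and 11 with SLNCR1 delta cons, against 102 and 75 with vector.

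ASNS was lower in the same libraries by a smaller margin. Per 100 ASNS reads there were 0.572 and 1.75 ASNSP1 reads with SLNCR1, 6.79 and 6.04 with SLNCR1 cons, and 0.755 and 1.53 with SLNCR1 delta cons, against 7.76 and 5.82 with vector. The ratio was thus lower in every SLNCR1 and SLNCR1 delta cons library than in any SLNCR1 cons or vector library. How the authors' counting split reads between the pair was not stated in the labels, so the level of ASNSP1 itself is uncertain. Adding the reads of both entries together as 1 gene left the limma counts in all 6 comparisons within 1.5 times the values given here.

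**Figure D2:**
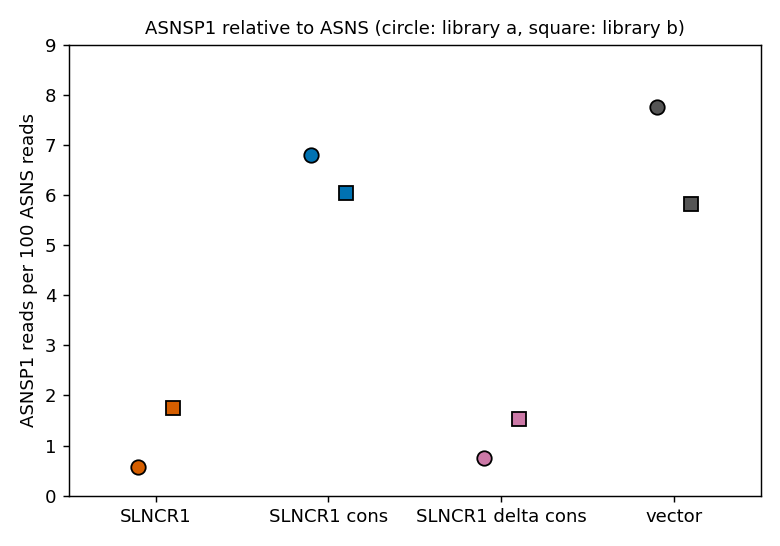
ASNSP1 reads per 100 ASNS reads (vertical axis, from 0) in the 2 libraries of each group; circles are library a and squares library b. The SLNCR1 and SLNCR1 delta cons libraries lie between 0.572 and 1.75, the SLNCR1 cons and vector libraries between 5.82 and 7.76.

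The 250 bases before the RefSeq gene starts (GRCh38.p14) were searched on both strands for TGATGNAA, the composite element bound by C/EBP and ATF factors that ATF4 is known to use. It was found in 3 of the 8 genes of the set that the promoter table holds, ATF3, CHAC1 and ASNS, and in 3.89% of all 27305 genes in the table. INHBE and ASNSP1, which had the largest falls, are not in it. Of the wider pathway genes listed further below, 7 of the 53 in the promoter table held the element. None of those 7 was called in the authors' deposited tables. The table gives ATF3 and ASNS 2 start windows each and CHAC1 1, and in ATF3 and ASNS the element was in only 1 of the 2. The ATF3 window without it lies far downstream of the one shown, at chr1:212614768-212615017. Which start A375 cells use was not tested. ATF3, CHAC1 and ASNS were low in SLNCR1 and SLNCR1 delta cons cells, and so were DDIT3 and SESN2, which lack the element. A link between the element and the low level was not tested. The 3 windows that hold the element are shown. Each is written 5′ to 3′ on the strand of the gene and ends at the base before that start, with the element in capitals.
CHAC1, chr15:40953221-40953470, plus strand: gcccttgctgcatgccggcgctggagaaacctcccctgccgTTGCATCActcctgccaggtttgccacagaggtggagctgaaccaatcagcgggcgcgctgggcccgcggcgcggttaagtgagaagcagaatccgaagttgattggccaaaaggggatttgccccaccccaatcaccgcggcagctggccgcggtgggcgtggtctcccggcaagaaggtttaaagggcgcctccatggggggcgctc
ASNS, chr7:97872409-97872658, minus strand: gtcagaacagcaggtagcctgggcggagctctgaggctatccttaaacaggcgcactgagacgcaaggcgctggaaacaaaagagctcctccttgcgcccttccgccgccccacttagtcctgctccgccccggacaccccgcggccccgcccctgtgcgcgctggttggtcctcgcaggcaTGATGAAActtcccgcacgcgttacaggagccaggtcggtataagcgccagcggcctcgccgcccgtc
ATF3, chr1:212565157-212565406, plus strand: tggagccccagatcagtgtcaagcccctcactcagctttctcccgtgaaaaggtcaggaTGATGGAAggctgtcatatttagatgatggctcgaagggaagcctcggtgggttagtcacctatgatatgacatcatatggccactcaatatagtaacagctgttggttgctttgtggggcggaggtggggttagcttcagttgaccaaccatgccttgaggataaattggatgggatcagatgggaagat

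The element lies 209 to 202 bases upstream in CHAC1, where it reads TGATGCAA on the opposite strand, 68 to 61 bases upstream in ASNS and 191 to 184 bases upstream in ATF3. TGACGTCA, the cyclic AMP response element, and the longer endoplasmic reticulum stress element, which no stretch matching TGATGNAA can also match in full, were in none of the 8 genes' windows, against 2.03% and 0.0916% of all genes in the table. DDIT3, SESN2, ATF4, TRIB3 and PSAT1 had no match to any of the 3 elements in these windows. A match in letters is a description of the window and says nothing on binding.

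With errors from 1 limma fit over all 8 libraries, 7 of the 10 genes were lower with SLNCR1 than with vector, where 7.4% of all 16073 tested genes were called lower, and 7 were lower with SLNCR1 delta cons, where 5.24% were (Benjamini-Hochberg adjusted p under 0.05). The 7 were in both cases ATF3, DDIT3, CHAC1, ASNS, ASNSP1, INHBE and SESN2. In simulated data the share of false limma calls for SLNCR1 against vector was above the nominal one. With SLNCR1 the SESN2 call lay at the threshold, with a limma adjusted p of 0.0498, and was lost in 10 of 15 alternative settings, and the ASNS call in 4 of 16; with SLNCR1 delta cons they were lost in 4 of 15 and 5 of 16. ATF4 and PSAT1 were called higher with SLNCR1 delta cons, where 5.18% of genes were, and both calls were lost in 8 of 15 alternative settings, trimmed-mean and library-total scaling among them (limma adjusted p with trimmed-mean scaling 0.0895 for ATF4 and 0.0885 for PSAT1). Higher genes made up 34.7% of all limma calls for SLNCR1 and 49.7% for SLNCR1 delta cons, and 16.7% and 27.1% with trimmed-mean scaling. Without vector library a, SLNCR1 against vector kept 4 called genes, with DDIT3 at an adjusted limma p of 0.0552. SLNCR1 delta cons against vector kept 4 without SLNCR1 delta cons library a and 5 without library b, from 9 in both directions.

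**Figure D3:**
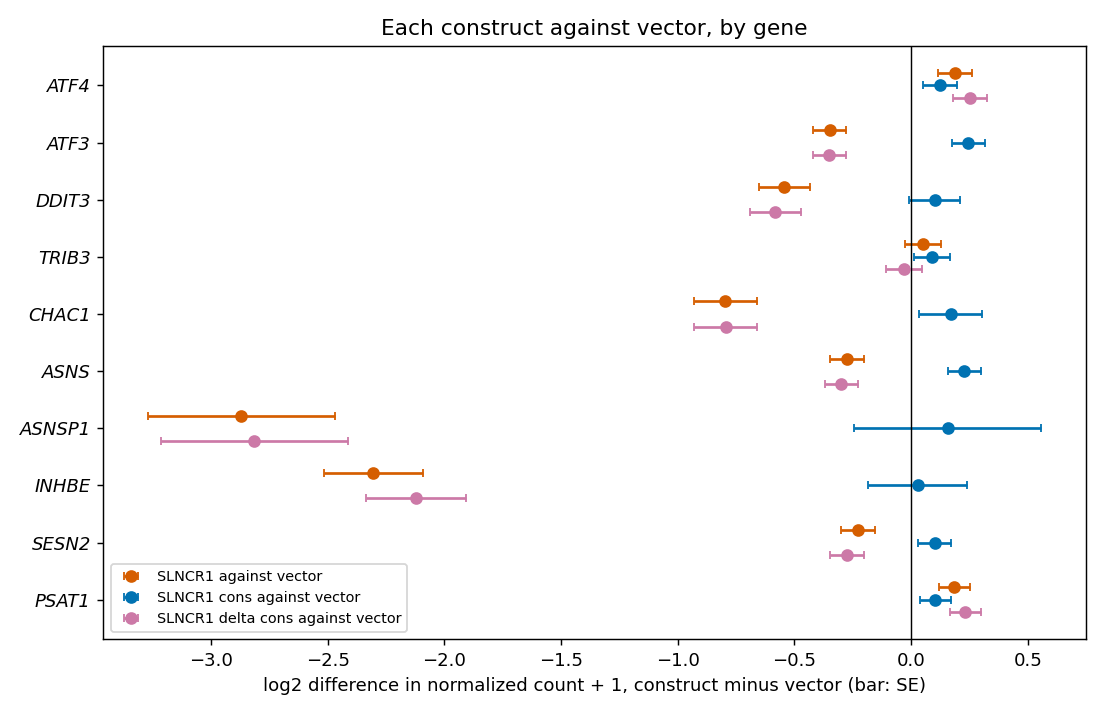
Log2 difference from vector (horizontal axis, normalized count + 1) of the 10 genes for SLNCR1, SLNCR1 cons and SLNCR1 delta cons, with bars of 1 SE from the limma fit over 8 libraries. SLNCR1 and SLNCR1 delta cons points lie on the same side of 0 for every gene but TRIB3 (0.05 and -0.03). They lie furthest below 0 for ASNSP1 and INHBE. SLNCR1 cons points lie above 0 for all 10 genes, though INHBE turned to -0.014 with library totals as scaling.

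The constructs could also be set against each other in the same fit. These comparisons use the construct libraries through which the genes were picked, so they too describe rather than test the set. Between full-length SLNCR1 and SLNCR1 delta cons, which differ by the conserved region, no gene of the 10 was called by limma. None had an unadjusted p under 0.05, the log2 differences ran from -0.18 to 0.08, and adjusted p ran from 0.834 to 0.997. Over all genes 0% were called in that comparison, with 1285 at an unadjusted p under 0.05. Without SLNCR1 library a, however, 7.63% of all genes were called (123 higher and 1104 lower with SLNCR1), and the set of 10 still had 0 calls with that or any other library left out. The 95% intervals still allow a log2 difference between -0.63 and 0.26 for INHBE, between -0.29 and 0.28 for CHAC1 and between -0.90 and 0.79 for ASNSP1, so equal levels are not shown.

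Between SLNCR1 and SLNCR1 cons, 7 of the 10 genes were lower with SLNCR1 in the limma fit, where 9.46% of all genes were called lower. On the log2 scale INHBE was lower by the largest margin among the protein-coding genes, at -2.33 ± 0.21 (SE, adjusted p = 1.18e-06), and CHAC1 followed at -0.97 ± 0.13 (adjusted p = 0.000123), both by limma. The limma differences were -0.64 ± 0.11 for DDIT3 (adjusted p = 0.000654), -0.59 ± 0.07 for ATF3 (adjusted p = 2.40e-05) and -0.50 ± 0.07 for ASNS (adjusted p = 0.000163). ASNSP1 was at -3.03 ± 0.40 and SESN2 at -0.33 ± 0.07, with adjusted limma p of 6.87e-05 and 0.00591. Leaving out SLNCR1 cons library a ended the SESN2 call by limma (adjusted p = 0.0832), as did leaving out library b (0.0610). ATF4, PSAT1 and TRIB3 gave log2 differences of 0.06, 0.08 and -0.04 with adjusted limma p of 0.603, 0.455 and 0.798.

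Between SLNCR1 cons and SLNCR1 delta cons, the same 7 genes were higher with SLNCR1 cons by limma, where 5.79% of all genes were called higher. The log2 differences were 2.15 ± 0.21 for INHBE, 0.96 ± 0.13 for CHAC1, 0.68 ± 0.11 for DDIT3 and 0.60 ± 0.07 for ATF3 (SE). Adjusted limma p for these were 3.07e-06, 0.000153, 0.000549 and 2.46e-05. ASNS differed by 0.53, ASNSP1 by 2.97 and SESN2 by 0.37, with limma adjusted p of 0.000129, 0.000105 and 0.00307. Leaving out SLNCR1 cons library a again ended the SESN2 call by limma (adjusted p = 0.0596). ATF4, PSAT1 and TRIB3 gave -0.13, -0.13 and 0.12, with adjusted limma p of 0.333, 0.277 and 0.398.

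Read library by library, all 4 SLNCR1 and SLNCR1 delta cons libraries lay below all 4 SLNCR1 cons and vector libraries for 7 of the 10 genes, as did 12.8% of the 16073 tested genes. PSAT1 was above in all 4, as were 11.3% of tested genes, and ATF4 and TRIB3 overlapped. This split of the libraries was chosen after their values were seen. Across the 8 libraries the genes did not all follow one profile: Pearson's r of each gene's log2 values with the mean of the other genes was 0.95 for ASNS, 0.91 for ATF3, 0.87 for SESN2, 0.82 for DDIT3 and ASNSP1, 0.78 for CHAC1, 0.70 for INHBE, 0.56 for TRIB3, -0.37 for ATF4 and -0.54 for PSAT1. These r describe 8 libraries that share 4 transfection groups.

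The 5 other genes whose log2 levels were most like the mean profile of the 9 genes other than ASNSP1, out of 12433 with a mean of at least 50 normalized counts, were PLK2, MAFF, C11orf68, TFE3 and RNF13, with Pearson's r of 0.979, 0.975, 0.974, 0.974 and 0.972 over 8 libraries. That mean includes ATF4 and PSAT1, whose r with the other genes was negative, so it is not the pattern of the lowered genes alone. In it vector library a, at -0.261, lay below SLNCR1 library b, at -0.205. PLK2, a polo-like kinase, had 1621 and 1757 normalized counts with SLNCR1, 2054 and 2226 with SLNCR1 cons, and 1667 and 1736 with SLNCR1 delta cons, against 1839 and 1938 with vector. MAFF, a small leucine zipper factor, had 965 and 1019.8 normalized counts with SLNCR1, 1289.8 and 1294 with SLNCR1 cons, and 933 and 989 with SLNCR1 delta cons, against 1054 and 1230.4 with vector. In both, SLNCR1 cons was highest and vector lay between it and the other two groups.

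The wider pathway was read through 7 lists of 78 genes named for their place in it. With SLNCR1, 2 of the 78 fell in the authors' deposited tables, where 0.844% of all tested genes were called lower. With SLNCR1 delta cons 3 fell and 7 rose there, where 1.14% of all tested genes were called lower and 1.11% higher. These shares include genes of low counts, and they also apply to the counts by list below. None of the 78 was called with SLNCR1 cons in the authors' deposited table, where 14 had an unadjusted p under 0.05, nor by limma, where 16 had. Over all genes such p were found for 460 of 34347 tested in the authors' deposited table, low genes included. By limma they were found for 5.44% of genes averaging 10 or more. The median log2 fold change over the 78 was 0.02 with SLNCR1, 0.07 with SLNCR1 cons and 0.05 with SLNCR1 delta cons in the authors' deposited tables, and over all genes with a mean of at least 10 it was 0.00, 0.00 and -0.01.

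**Figure D4:**
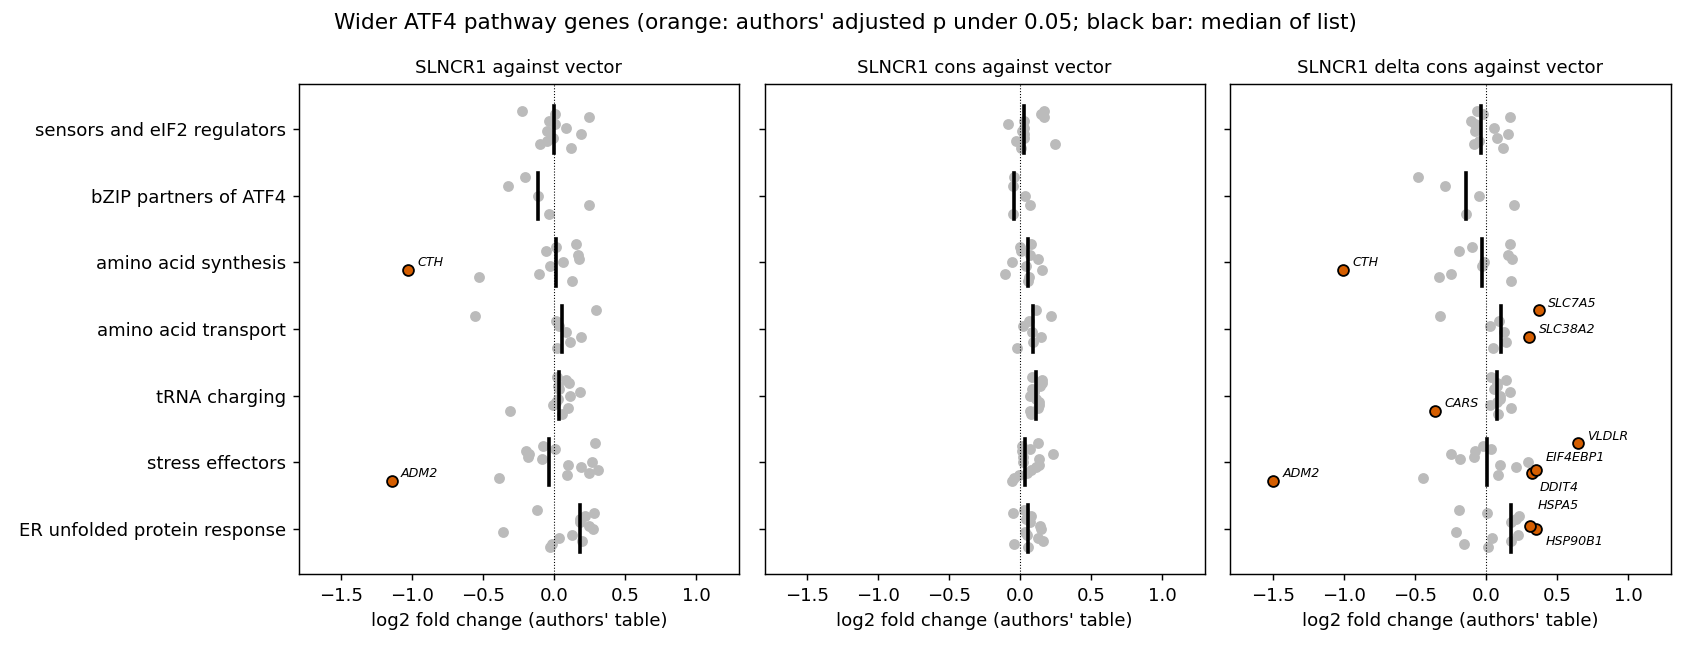
Log2 fold change against vector in the authors' deposited tables (horizontal axes) of 77 of the 78 wider pathway genes, by list, for SLNCR1, SLNCR1 cons and SLNCR1 delta cons; orange points passed the authors' adjusted p of 0.05 and black bars are list medians. FGF21, at 0 reads in both SLNCR1 libraries, is counted in the medians and not drawn; CTH and ADM2 are low with SLNCR1 and SLNCR1 delta cons, and no point is called with SLNCR1 cons.

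Of the 11 amino acid synthesis genes 1 fell in both comparisons. CTH, which makes cysteine from cystathionine, had 158 and 153 normalized counts with SLNCR1, 356 and 359 with SLNCR1 cons, and 150.2 and 168 with SLNCR1 delta cons, against 331 and 306 with vector. The levels of CTH in SLNCR1 and SLNCR1 delta cons were apart from those of the other groups. Its log2 fold changes in the authors' deposited tables were -1.03 with SLNCR1 (adjusted p = 3.22e-07) and -1.005 with SLNCR1 delta cons (adjusted p = 2.97e-08).

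Of the 16 stress effectors ADM2, a secreted peptide of the calcitonin family, had 195 and 156 normalized counts with SLNCR1, 368 and 385 with SLNCR1 cons, and 138 and 138 with SLNCR1 delta cons, against 376 and 401 with vector. It fell by 1.14 on the log2 scale with SLNCR1 (adjusted p = 4.15e-10) and by 1.50 with SLNCR1 delta cons (adjusted p = 1.27e-19) in the authors' deposited tables. Among the others, 3 rose with SLNCR1 delta cons in the authors' deposited table: the lipoprotein receptor VLDLR by 0.65 (adjusted p = 0.0172), the cap-binding protein's repressor EIF4EBP1 by 0.35 (adjusted p = 0.0116) and the mTORC1 inhibitor DDIT4 by 0.33 (adjusted p = 0.0324), on the log2 scale. VLDLR had 196 and 215 normalized counts with SLNCR1 and 202 and 171 with SLNCR1 cons. With SLNCR1 delta cons it had 251 and 279, against 147 and 191 with vector. FGF21, a secreted hormone, had 0 reads in both SLNCR1 libraries and at most 5.33 normalized counts elsewhere, too few for a comparison.

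Of 8 amino acid transport genes, 2 rose with SLNCR1 delta cons in the authors' deposited table, SLC7A5, which carries large neutral amino acids, by 0.37 (adjusted p = 0.0312) and SLC38A2, which carries small ones, by 0.31 (adjusted p = 0.0019), on the log2 scale. SLC7A5 had 6273 and 6630 normalized counts with SLNCR1 and 5561 and 5987 with SLNCR1 cons. With SLNCR1 delta cons it had 6558 and 7169, against 4962 and 5613 with vector. SLC38A2 had 4005.5 and 3758 with SLNCR1 and 3699 and 3958 with SLNCR1 cons. With SLNCR1 delta cons it had 4081 and 4397, against 3344 and 3497 with vector. Of 13 tRNA charging genes, CARS, the cysteinyl-tRNA synthetase gene, fell with SLNCR1 delta cons by 0.36 on the log2 scale (adjusted p = 0.00178) in the authors' deposited table. CARS had 1370 and 1379 normalized counts with SLNCR1 and 1790 and 1841 with SLNCR1 cons. With SLNCR1 delta cons it had 1318 and 1358, against 1686 and 1732 with vector.

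Of 13 genes of the endoplasmic reticulum unfolded protein response, 2 chaperone genes rose with SLNCR1 delta cons in the authors' deposited table, HSPA5 by 0.31 (adjusted p = 0.0354) and HSP90B1 by 0.35 (adjusted p = 0.00161), on the log2 scale. HSPA5 had 3492 and 3749 normalized counts with SLNCR1 and 3260 and 3565 with SLNCR1 cons. With SLNCR1 delta cons it had 3631 and 3989, against 2952 and 3177 with vector. HSP90B1 had 3636 and 3880 with SLNCR1 and 3375 and 3615 with SLNCR1 cons. With SLNCR1 delta cons it had 3849 and 4141, against 2993 and 3242 with vector. Of the 12 sensors and eIF2 regulators and the 5 leucine zipper partners of ATF4 none was called in the authors' deposited tables. Unadjusted p under 0.05 were found there for 2, 4 and 1 of the 12 and for 0, 0 and 1 of the 5, with SLNCR1, SLNCR1 cons and SLNCR1 delta cons, and limma called 2, 0 and 0 of the 12 and 0, 0 and 1 of the 5 in the same order. Over all genes limma called 11.3% for SLNCR1, 0.00622% for SLNCR1 cons and 10.4% for SLNCR1 delta cons, so these few calls do not set the lists apart from other genes. The limma calls, named after their values were seen, were EIF2S1, the alpha subunit of eIF2, higher by 0.24 and PPP1R15B lower at -0.23 with SLNCR1, and NUPR1, a stress-induced cofactor, lower at -0.47 with SLNCR1 delta cons, on the log2 scale. Their adjusted limma p were 0.0321, 0.0439 and 0.0317.

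Set against each other by limma, SLNCR1 and SLNCR1 cons differed at 11 of the 77 wider pathway genes that passed the filter on low counts, all lower with SLNCR1, where 9.46% of all tested genes were called lower. They were CTH and ADM2, the tRNA gene CARS, the cystine transporter gene SLC7A11, the mitochondrial folate gene ALDH1L2, the cell death genes PMAIP1 and BBC3, the degradation gene HERPUD1, the stress kinase gene EIF2AK2, the eIF2 phosphatase subunit gene PPP1R15B and the endoplasmic reticulum sensor gene ERN1. SLNCR1 cons against SLNCR1 delta cons gave 10 of these as higher, all but ERN1, where 5.79% of all genes were called higher, and VLDLR as lower, where 1.11% of all genes were called lower. SLC7A11 had 999 and 794 normalized counts with SLNCR1, 1527 and 1576 with SLNCR1 cons, and 1002 and 1111 with SLNCR1 delta cons, against 1407 and 1237 with vector. Between SLNCR1 and SLNCR1 delta cons none of the 77 was called by limma, with 5 at an unadjusted p under 0.05. These 3 counts moved when single libraries were left out, and the counts over all genes moved too.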

How the data were processed

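Poly(A)-selected RNA from A375 cells was sequenced with a kit that keeps no strand, in 4 groups of 2 libraries, per the labels' protocols. Per the submitters' processing notes STAR, featureCounts, DESeq and the hg19 build were used, and no version, setting or annotation is stated there. In the 3 deposited tables the signal is the authors' group mean of reads divided by size factors. The ratio is the deposited fold change, and log2 was taken of it here. The p-value and adjusted p-value are the authors', deposited per table.

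Whole reads of each library were solved from the group means, which are sums of multiples of 2 steps (a single solution for 100% of genes with reads in SLNCR1, SLNCR1 delta cons and vector, and for 99.98% in SLNCR1 cons). Totals were 8222868 to 12015394 reads, and spread between 2 libraries, not depth alone, sets the errors. Reads were scaled by median-of-ratios size factors over 8 libraries. Differences were tested with limma 3.58.1 (R 4.3.3, trended moderated variances, all 4 groups) on log2(normalized count + 1), which understates changes of low genes, for the 16073 genes averaging 10 or more, Benjamini-Hochberg adjusted. The fit was tested on simulated data with 1 spread for all genes of a group, in which few genes were changed. There the share of false calls was above the nominal one in each comparison with full-length SLNCR1, most of all against vector. In the other comparisons it was below the nominal one. That share depends on how many genes change, so it need not hold for these data. Counts by the authors' adjusted p under 0.05 are the main ones against vector. Count-based models were not used. Python 3.11.15, pandas 2.3.3, numpy 2.4.6, matplotlib 3.10.9 and blastn 2.17.0 (ASNSP1 against ASNS, GENCODE 29) were used, with RefSeq GRCh38.p14 promoters.

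The genes and lists were chosen with earlier results of these data known. All 10 genes were named, with up to 4 called genes of each list per comparison by the largest change, and the 5 genes most alike. Alternatives were the threshold, scaling, pseudocount, filter, groups in the fit, added ASNS and ASNSP1 reads and each library left out.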

Additional observations from a re-analysis of the deposited data

How the results depend on the processing

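No paired analysis was possible because the deposited columns carry no replicate numbers. With the limma fit in place of the authors' tables, which changes the test together with the scaling, the filter and the groups fitted, called genes of the set were 7 for SLNCR1 against vector, and called pathway genes 14 for SLNCR1 and 18 for SLNCR1 delta cons against vector, where 11.3% and 10.4% of all genes were called. Without a filter on low counts limma called 4 and 7 pathway genes in those comparisons. It also called 5 genes of the set for SLNCR1 delta cons against vector, and 7 pathway genes for SLNCR1 cons against SLNCR1 delta cons. Over all 37939 genes then tested, limma called 32 higher and 458 lower for SLNCR1 against vector. For SLNCR1 delta cons against vector these were 244 and 412, and for SLNCR1 cons against SLNCR1 delta cons 564 and 37. With only the 2 groups compared in the fit limma called 6 pathway genes for SLNCR1 against vector and 25 for SLNCR1 cons against SLNCR1 delta cons. Over all 16073 genes it then called 51 higher and 802 lower in the first comparison. In the second it called 1929 higher and 1338 lower. Leaving out each library in turn, which assumes that a lone library varies like the other groups, the set had 4 to 8 calls for SLNCR1, 0 to 0 for SLNCR1 cons and 4 to 9 for SLNCR1 delta cons against vector, 6 to 7 for SLNCR1 against SLNCR1 cons, 0 to 0 for SLNCR1 against SLNCR1 delta cons and 6 to 7 for SLNCR1 cons against SLNCR1 delta cons. In the same order the pathway lists had 5 to 24, 0 to 0, 3 to 29, 8 to 17, 0 to 3 and 5 to 19. The highest count of the set for SLNCR1 against vector included ATF4 as higher, at a log2 difference of 0.26 without SLNCR1 library a. Directions turned for log2 differences near 0. With a library left out, TRIB3 ran from -0.054 to 0.160 with SLNCR1, -0.018 to 0.196 with SLNCR1 cons and -0.138 to 0.076 with SLNCR1 delta cons against vector, and from -0.093 to 0.020 for SLNCR1 against SLNCR1 cons. INHBE ran from -0.079 to 0.135 for SLNCR1 cons against vector (-0.014 with library totals), and ATF4 from -0.0077 to 0.136 for SLNCR1 against SLNCR1 cons. The cause was not tested. The ATF3 call by limma with SLNCR1 delta cons against vector was lost without SLNCR1 delta cons a (adjusted p = 0.0809). With 2 libraries a group, and 5 to 15 reads of ASNSP1 in the low libraries, small differences could not be seen.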
